A study of Homo sapiens with 6 samples.

Results

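Transcripts of 10 amino acid transporter genes were followed across 6 RNA-seq libraries of SKM-1 cells, an established human acute myeloid leukaemia line derived after a myelodysplastic syndrome. The genes SLC7A11, SLC3A2, SLC7A5, SLC7A1, SLC38A2, SLC38A1, SLC1A4, SLC1A5, SLC6A9 and SLC43A1 were chosen by symbol: they carry cystine, leucine, arginine, glutamine, serine or glycine across the plasma membrane, or, for SLC3A2, bring such carriers there. All 10 were found, out of 26704 genes listed in at least 1 of the authors' 3 tables and 23519 listed in every table. Every group consisted of SKM-1 cells: 2 libraries were untreated, 2 were treated with BOR, 1 with VEM and 1 with VEM and BOR together. VEM is vemurafenib, named in the series title, an inhibitor of RAF kinases. The labels do not spell out BOR, and no source used here gives a dose or a duration. The labels do not say whether libraries with the same treatment were separate cultures. P-values thus reflect the spread of these libraries, in limma largely pooled over genes, and may measure technical spread. All results refer to this 1 line.

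Amino acid transporters fall into families with different partners. SLC3A2 is a single-pass glycoprotein, the heavy chain, that carries light chains such as SLC7A5 and SLC7A11 to the cell surface through a disulphide bond. With SLC7A5 it forms LAT1, which brings in leucine and other large neutral amino acids in exchange for glutamine, and with SLC7A11 it forms system xc-, which brings in cystine for glutathione synthesis in exchange for glutamate. Many of these genes are known targets of the transcription factor ATF4, which is translated when eIF2alpha is phosphorylated in the integrated stress response, and SLC7A11 is also known as a target of NRF2.

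Promoter sequences of the members were read for the letters that these factors are known to prefer, because 8 of the 10 genes were higher together in the libraries with VEM. RefSeq entries on GRCh38.p14 matched 9 of the 10 members, all but SLC7A11, with 16 start sites between them, and the 250 bases before each start were searched on both strands. TGATGNAA, the C/EBP-ATF response element, was in 1 of the 16 windows, at SLC1A5, and in 3.14% of all 35116 windows. TGACNNNGC, the antioxidant response element, was in 3 windows, at SLC3A2, SLC7A1 and SLC1A5, and in 10.9% of all windows. Its SLC1A5 window lay before a start site 1301 bases inside the gene, with 193 of its 250 bases in exons of SLC1A5. The motifs share the letters TGA at their start, and the matches of both at SLC1A5 lay in separate windows. Each match is a description of letters, not of binding. Bases after the start sites or farther before them were not searched, so a window without a match does not show that the gene lacks the motif. The SLC3A2 stretch lies at chr11:62881449-62881670 on the plus strand, from 250 to 29 bases before a start site 25597 bases inside the gene, and ends with the match in capitals. The SLC7A1 window lies at chr13:29595689-29595938 on the minus strand and holds its match in capitals. The SLC1A5 stretch of 30 bases lies at chr19:46784893-46784922 on the minus strand, before a start site 3780 bases inside the gene, with the C/EBP-ATF letters in capitals. The SLC7A5 window at chr16:87869508-87869757, minus strand, is shown beside them as the promoter of the most abundant member and held neither motif. The sequences are written 5′ to 3′ on the strand of the gene.
SLC3A2: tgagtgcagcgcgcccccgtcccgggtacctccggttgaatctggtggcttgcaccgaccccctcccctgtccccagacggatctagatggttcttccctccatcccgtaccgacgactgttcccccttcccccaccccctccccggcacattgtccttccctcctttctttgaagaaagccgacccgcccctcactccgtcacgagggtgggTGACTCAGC
SLC7A1: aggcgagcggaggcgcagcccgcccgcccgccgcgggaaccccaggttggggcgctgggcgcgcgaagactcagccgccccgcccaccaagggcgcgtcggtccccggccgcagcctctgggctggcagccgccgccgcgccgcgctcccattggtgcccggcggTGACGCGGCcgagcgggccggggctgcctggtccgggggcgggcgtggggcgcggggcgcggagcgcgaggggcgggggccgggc
SLC1A5: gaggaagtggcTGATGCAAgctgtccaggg
SLC7A5: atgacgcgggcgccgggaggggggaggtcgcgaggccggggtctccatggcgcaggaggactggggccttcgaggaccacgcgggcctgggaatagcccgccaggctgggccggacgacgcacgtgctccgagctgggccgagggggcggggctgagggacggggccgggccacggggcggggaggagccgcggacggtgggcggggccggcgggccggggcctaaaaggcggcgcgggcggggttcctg

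Depth was even, from 17252404 to 18507606 reads assigned to genes per library. The line was checked against its markers: 7 of 8 myeloid genes had reads in every library, with a summed level of 1162 to 2142 reads scaled to the library total (CPM). Summed erythroid and epithelial markers were at most 1.33 and 0.811 CPM, B cell markers at 6.16 to 14.5 CPM and fibroblast markers at 2.22 to 10.5 CPM. Of 4 T cell markers, 3 were at 0 and CD247 stood at 15.6 to 23.1 CPM. The myeloid sum was 1162 and 1212 CPM in VEM and VEM+BOR against 1737 to 2142 CPM in the other libraries. This gap lay mostly in MPO, the granule enzyme myeloperoxidase, at 412 and 285 CPM with VEM, 1212 and 873 CPM in untreated cells and 1052 and 1677 CPM in BOR. CEBPA was also lower, at 78.8 and 76.9 CPM with VEM, 122 and 162 CPM in untreated cells and 146 and 82.5 CPM in BOR. For CD33, ANPEP, SPI1, PTPRC and LYZ the libraries with VEM were not both below the untreated pair. Without MPO the sum was 750 and 927 CPM with VEM, 848 and 864 CPM in untreated cells, 932 CPM in BOR 1 and 465 CPM in BOR 2. The part of these markers in the results below was not tested. The second BOR library stood apart: its log2 values correlated with those of the other libraries at r = 0.860 to 0.879 across 15438 genes, against 0.964 to 0.985 among the others. PTPRC, the pan-leukocyte antigen CD45, was at 10.8 CPM there and at 175 to 272 CPM elsewhere. Results that rest on this library are given with and without it.

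Compared per length, as CPM divided by gene length in kilobases (RPKM), the members spanned a wide range in untreated cells. The LAT1 light chain SLC7A5 was the most abundant at 182 ± 45.8 RPKM (SD, n = 2). It was followed by the glutamine carrier SLC1A5 at 87.4 ± 5.29 RPKM and the heavy chain SLC3A2 at 76.0 ± 23.2 RPKM, whose untreated libraries at 59.6 and 92.4 RPKM took in both values of SLC1A5, 83.7 and 91.2 RPKM. The libraries of SLC7A5 were above both. Next came SLC43A1 at 18.0 ± 0.690, SLC38A1 at 16.4 ± 0.154, SLC38A2 at 15.6 ± 3.26, SLC7A1 at 14.8 ± 2.47 and SLC1A4 at 13.6 ± 0.779 RPKM. From SLC38A1 to SLC1A4 each gene overlapped its neighbour in the order, while both values of SLC43A1 (17.5 and 18.5) were above those of SLC38A1 (16.5 and 16.3). The cystine carrier SLC7A11 was lower, at 2.43 ± 0.789 RPKM. The glycine carrier SLC6A9 was lowest, at 0.0389 ± 0.0397 RPKM. Together the 10 genes took 0.189% and 0.234% of all assigned reads in the untreated libraries, 0.234% and 0.456% in BOR 1 and BOR 2, 0.410% in VEM and 0.412% in VEM+BOR.

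In the VEM and VEM+BOR libraries the transporter transcripts were higher as a group. Of 9 members with a mean value of at least 10 (SLC6A9 fell short), 8 were above both untreated libraries in VEM and in VEM+BOR, where 30.3% and 30.1% of all genes tested were. SLC43A1 overlapped the untreated range in each by these normalised values, though not in CPM, where it was above that range. In these bulk samples fewer cells of a type and less RNA per cell cannot be told apart. The members' median log2 change was 0.79 in VEM and 0.88 in VEM+BOR, against 0.00 and 0.01 over all genes tested. Both comparisons use the same untreated libraries. Each single comparison sets 1 treated library against 2, tested with limma on log2(value + 1) under the assumption that the lone library varies like the untreated pair. At a Benjamini-Hochberg adjusted p under 0.05, limma called 0 of the 9 members in VEM, where it called 0.0446% of genes (0.0382% higher and 0.00637% lower). It called 0 of 9 in VEM+BOR, where it called 0.192% of genes (0.173% higher and 0.0192% lower). At an unadjusted p under 0.05 it had 3 members higher in VEM, with 1.5% of genes, and 5 in VEM+BOR, with 2.2% of genes. On recovered reads edgeR called 1 member, SLC7A11, in VEM (0.261% of genes) and in VEM+BOR (0.545% of genes). DESeq2 called 0 members in VEM (0.102% of genes) and SLC7A11 in VEM+BOR (0.41% of genes). Taking VEM and VEM+BOR as 1 group of 2 libraries against the 2 untreated ones, limma called 1 member higher, SLC7A11, where it called 0.22% of genes (0.201% higher and 0.0194% lower). In that fit 7 members had an unadjusted p under 0.05 and were higher, with 4.47% of all genes, and 8 of 9 had both libraries above both untreated ones, with 19.4% of all genes. None of the 9 had both below, as 14.4% of all genes did, and none was below both untreated libraries in VEM or VEM+BOR alone, as 27.6% and 27.9% of genes were. Leaving out 1 of these libraries leaves 1 in a group. The spread then comes from the other pair, so the calls of such fits are not compared here. The members' median log2 change was 0.84 without untreated 1, 0.84 without untreated 2, 0.90 without VEM and 0.79 without VEM+BOR. The count of members called in the joint fit depended on the tool, with 0 members in edgeR (0.0583% of genes) and 4 in DESeq2 (1.21%): SLC7A11, SLC7A5, SLC7A1 and SLC1A4.

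**Figure D1:**
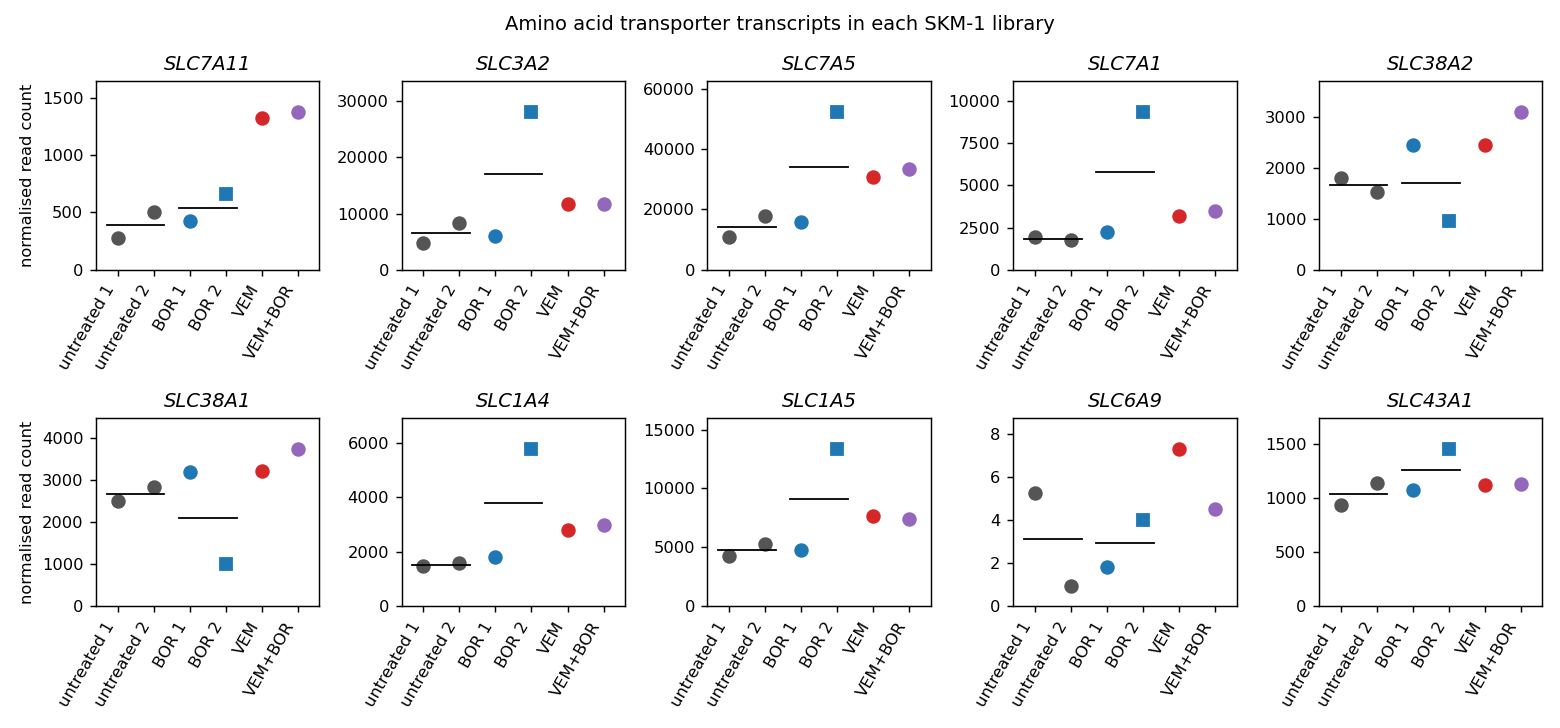
Normalised read count (all libraries on 1 scale, linear axis from 0) of each of the 10 transporter genes in the 6 libraries; points are single libraries, bars the mean of the untreated and of the BOR pair, and the square marks BOR 2. SLC7A11 stands at 1318 and 1370 in the libraries with VEM, above every other library.

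The light chain of system xc-, SLC7A11 (chr4:138164097-138242349, minus strand, GRCh38), showed the largest difference of the members in the libraries with VEM. On 1 scale for all libraries its normalised read counts were 274 and 502 in untreated cells, 426 and 658 in BOR 1 and BOR 2, 1318 in VEM and 1370 in VEM+BOR. Both libraries with VEM were above the other 4, and the BOR pair overlapped the untreated pair. Over the untreated mean SLC7A11 was 3.37-fold in VEM, and its log2 change, a difference of mean log2 values and so not the log of that ratio of means, was 1.82 (SE 0.42, limma adjusted p = 0.335), and 0.484% of genes had a larger change. In VEM+BOR the ratio was 3.49 and the log2 change 1.87 (SE 0.42, limma adjusted p = 0.0778). With both libraries as 1 group it rose 3.46-fold, from 388 ± 161 to 1344 ± 36.6 (SD, n = 2 each), with a log2 change of 1.85 (SE 0.29, limma adjusted p = 0.0494). That call sits at the threshold: over the alternatives its adjusted p ran from 3.66e-06 to 1.0, and it was lost in 9 of 14, among them edgeR (adjusted p = 0.0719). The 14 include the fits that left out a library and so leave 1 library in a group. The untreated pair differed by 1.83-fold, and the log2 change was 1.42 without untreated 1 and 2.29 without untreated 2. For VEM alone, edgeR gave an adjusted p of 0.00273 and DESeq2 0.116, and over the alternatives it ran from 0.00273 to 1.0. For VEM+BOR alone, edgeR gave an adjusted p of 0.000702 and DESeq2 0.0326, the alternatives of that comparison ran from 0.000702 to 1.0, and 6 of 13 passed the threshold. The authors' deposited table for VEM+BOR gives SLC7A11 a log2 change of 1.80 with an adjusted p of 0.0423, the one member under 0.05 there. In the authors' deposited table for VEM its log2 change is 1.76 with an adjusted p of 0.162.

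The opposite-strand gene SLC7A11-AS1 shares 865 exon bases with SLC7A11, 8.97% of its length. It had 7 and 2 reads in untreated cells, 8 and 1 in BOR, 18 in VEM and 8 in VEM+BOR, against 313 to 1513 reads for SLC7A11 itself. The protocol names no step that marks strand, so reads in the shared bases cannot be assigned to one of the pair.

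The heavy chain SLC3A2 (chr11:62856102-62888875, plus strand), the partner of every light chain described here, was higher with VEM and highest in BOR 2. Its normalised read counts were 4697 and 8351 in untreated cells, 6024 and 28015 in BOR 1 and BOR 2, 11650 in VEM and 11655 in VEM+BOR. The libraries with VEM were above both untreated ones, and BOR 1 lay between these. The log2 change was 0.89 in VEM (SE 0.47) and 0.88 in VEM+BOR (SE 0.47), with limma adjusted p = 1.0 in each. It was 0.90 over both (SE 0.28, limma adjusted p = 0.481). The untreated pair differed by 0.83 on the log2 scale, nearly as much as the treated libraries differed from their mean.

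The LAT1 light chain SLC7A5 (chr16:87830023-87869488, minus strand) had the second largest difference in the libraries with VEM. Its normalised read counts were 10826 and 17774 in untreated cells, 15824 and 52065 in BOR 1 and BOR 2, 30829 in VEM and 33495 in VEM+BOR. Again BOR 1 lay within the untreated range and every other treated library above it. The log2 change was 1.15 in VEM (SE 0.55) and 1.26 in VEM+BOR (SE 0.56), with limma adjusted p = 1.0 in each, and 1.21 over both (SE 0.29, limma adjusted p = 0.239). An antisense gene, AC126696.2, shares 5.71% of its exon bases and had at most 9 reads in a library.

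The heavy chain was set beside the sum of 6 light chains that pair with it: SLC7A5, SLC7A11, SLC7A6, SLC7A7, SLC7A8 and SLC7A10. The light chain sum was 166 and 228 RPKM in untreated cells, 224 and 455 in BOR 1 and BOR 2, 433 in VEM and 445 in VEM+BOR. Its ratio to SLC3A2 was 2.78 and 2.46 in untreated cells, 3.12 and 2.08 in the BOR pair, 3.02 in VEM and 3.28 in VEM+BOR, so heavy and light chain transcripts were high in the same 3 libraries. SLC7A5 made up 90.5% to 97.6% of the light chain sum in every library. SLC7A11 made up 1.13% and 1.31% of the sum in untreated cells and 1.22% in BOR 1. In VEM and VEM+BOR its share was 2.01% and 1.92%, above those, and in BOR 2 it was 0.607%, below them. These shares are of transcripts per length and carry no test.

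**Figure D2:**
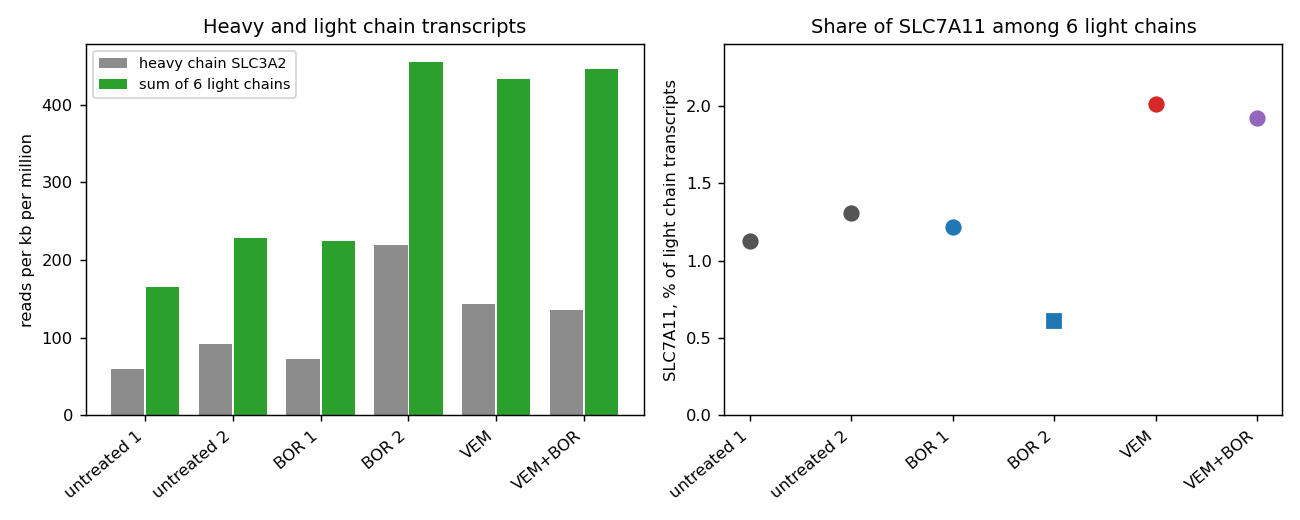
Left, SLC3A2 and the sum of 6 light chains in RPKM, as bars from 0, for each library; right, SLC7A11 as a percentage of the light chain sum. The share is 2.01% and 1.92% with VEM and 0.607% in BOR 2, with the untreated libraries at 1.13% and 1.31%.

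SLC7A1 (chr13:29509410-29595688, minus strand), the CAT1 carrier of arginine and lysine, works without a heavy chain. Its normalised read counts were 1942 and 1758 in untreated cells, 2231 and 9314 in BOR 1 and BOR 2, 3204 in VEM and 3497 in VEM+BOR. All 4 treated libraries were above both untreated ones, which lay close together. The log2 change was 0.79 in VEM (SE 0.37), 0.91 in VEM+BOR (SE 0.37) and 0.86 over both (SE 0.20, limma adjusted p = 0.193).

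SLC1A4 (chr2:64988477-65023865, plus strand) is the ASCT1 exchanger of alanine, serine and cysteine. By normalised read counts its untreated spread was the narrowest of the 9 members tested, 0.08 on the log2 scale. In CPM that of SLC38A1 was narrower, at 165 and 163 CPM against 98.1 and 90.5 CPM for SLC1A4. The normalised read counts of SLC1A4 were 1492 and 1578 in untreated cells, 1812 and 5765 in BOR 1 and BOR 2, 2814 in VEM and 2970 in VEM+BOR. Every treated library was above the untreated pair, with BOR 1 nearest to it. The log2 change was 0.87 in VEM (SE 0.37), 0.94 in VEM+BOR (SE 0.37) and 0.91 over both (SE 0.19, limma adjusted p = 0.139).

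SLC1A5 (chr19:46774883-46788594, minus strand) is ASCT2, which exchanges glutamine for other neutral amino acids. Its normalised read counts were 4243 and 5300 in untreated cells, 4808 and 13332 in BOR 1 and BOR 2, 7695 in VEM and 7447 in VEM+BOR. The libraries with VEM were above the untreated pair, and BOR 1 lay between its values. The log2 change was 0.69 in VEM (SE 0.42), 0.64 in VEM+BOR (SE 0.42) and 0.67 over both (SE 0.21, limma adjusted p = 0.481). The antisense gene AC008622.2 shares 23.4% of its exon bases but had at most 4 reads in a library.

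The sodium-coupled glutamine carriers SLC38A2 (SNAT2) and SLC38A1 (SNAT1) are neighbours on chromosome 12 with 88.2 kb between them, at chr12:46358189-46372867 and chr12:46183063-46270017. SLC38A2 had normalised read counts of 1801 and 1535 in untreated cells, 2439 and 966 in BOR 1 and BOR 2, 2447 in VEM and 3085 in VEM+BOR. SLC38A1 had 2517 and 2848 in untreated cells, 3185 and 999 in BOR 1 and BOR 2, 3211 in VEM and 3739 in VEM+BOR. Both genes were above the untreated pair in VEM, VEM+BOR and BOR 1, and both were below it in BOR 2. The log2 change of SLC38A2 was 0.55 in VEM (SE 0.37), 0.88 in VEM+BOR (SE 0.37) and 0.72 over both (SE 0.21, limma adjusted p = 0.409). That of SLC38A1 was 0.26 in VEM (SE 0.38), 0.47 in VEM+BOR (SE 0.38) and 0.37 over both (SE 0.20, limma adjusted p = 0.909).

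SLC43A1 (chr11:57484534-57515786, minus strand), the LAT3 facilitator of leucine uptake that needs no heavy chain, was the member nearest to its untreated level with VEM. Its normalised read counts were 941 and 1139 in untreated cells, 1074 and 1455 in BOR 1 and BOR 2, 1128 in VEM and 1133 in VEM+BOR. On this scale both libraries with VEM lay inside the untreated range, with a log2 change of 0.13 over both (SE 0.21, limma adjusted p = 0.998). In CPM both were above the untreated pair, at 71.9 and 68.3 CPM against 61.8 and 65.3 CPM, so the overlap depends on the scaling.

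SLC6A9 (chr1:43991500-44031467, minus strand), the glycine carrier GLYT1, was too low for a test. It had 6 and 1 reads in untreated cells, 2 and 3 in BOR, 8 in VEM and 5 in VEM+BOR. Exact Poisson 95% intervals, which cover counting error only, were 2.20 to 13.1 and 0.0253 to 5.57 reads in untreated cells and 3.45 to 15.8 reads in VEM, so a difference was not detectable at this depth. CCDC24 on the opposite strand shares 7.83% of its exon bases and had 113 to 227 reads per library, and reads in the shared bases cannot be assigned to one of the pair.

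**Figure D3:**
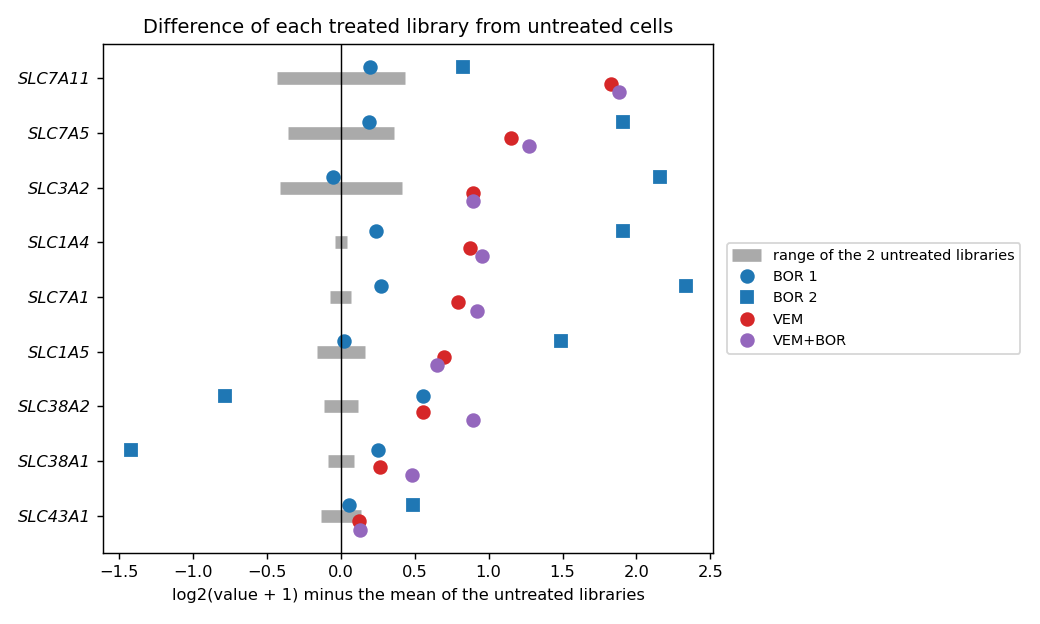
Difference of each treated library from the untreated mean in log2(value + 1) for the 9 members tested; grey bars span the untreated pair and the square marks BOR 2. VEM and VEM+BOR differ by -0.05 to 0.33, while BOR 1 and BOR 2 differ by up to 2.22, for SLC3A2.

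BOR against untreated cells turned on 1 library. With both BOR libraries, limma called 0 of 9 members and 0 of 15382 genes (0%), with 38 genes and 0 members at an unadjusted p under 0.05. On reads edgeR called 0 genes and DESeq2 28 genes, with 0 members in either. SLC7A1 and SLC1A4 had both BOR libraries above both untreated ones, as did 11.7% of all genes, and the other 7 overlapped. None had both below, as 8.24% of genes did. At an unadjusted p under 0.05, 0.202% of genes were higher. The members' median log2 change was 0.76, against 0.04 over all genes. SLC7A1 had the largest at 1.31 (SE 0.72), followed by SLC1A4 at 1.08 (SE 0.63) and SLC3A2 at 1.06 (SE 0.80), with limma adjusted p = 0.968 for each. SLC7A11 was at 0.51 (SE 0.55, limma adjusted p = 0.968), and the negative values were SLC38A1 at -0.58 (SE 0.64) and SLC38A2 at -0.11 (SE 0.57).

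The BOR libraries differed in most members. In BOR 1 the members lay from -0.06 (SLC3A2) to 0.55 (SLC38A2) on the log2 scale from the untreated mean, where all genes had an SD of 0.38. In BOR 2 they lay from -1.42 (SLC38A1) to 2.33 (SLC7A1), where all genes had an SD of 1.46. SLC3A2 was at 2.16, SLC7A5 and SLC1A4 at 1.91 each, SLC1A5 at 1.49 and SLC7A11 at 0.82 in BOR 2. Without BOR 1, limma called 6 members, 5 higher and SLC38A1 lower, with BOR as 1 library. The same fit called 26.1% of all genes, 9.74% higher and 16.3% lower, and the members' median log2 change was 1.49. Without BOR 2 it called 0 members and 0 genes, the median was 0.20, and SLC3A2, SLC38A2 and SLC38A1 had the opposite sign (-0.05, 0.56 and 0.25). BOR 2 also depended most on scaling. Scaled by library totals, the median change of the members in BOR was 0.46 and that of all genes -0.26, and SLC43A1 changed sign to -0.02. In CPM, SLC7A11 was 1.13-fold and 1.14-fold the untreated mean in BOR 1 and BOR 2, while SLC7A1 was 1.21-fold and 3.30-fold.

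VEM+BOR and VEM differed little in these genes. The difference in log2(value + 1) between them ran from -0.05 for SLC1A5 to 0.33 for SLC38A2 over the 9 members tested, where all genes had an SD of 0.48. The SNAT carriers had the widest gaps, with SLC38A1 at 0.22. SLC7A11 differed by 0.06 and SLC3A2 by 0.00. With 1 library in each group there is no replicate check, and no test was made.

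The other amino acid carriers and the pathways around these genes were described from lists, chosen with earlier results of these data known. Of 36 other plasma membrane transporters, 16 could be tested in the libraries with VEM against untreated cells. Limma called 0 of them, with 1 at an unadjusted p under 0.05, and their median log2 change was 0.03. Among them 4 were above both untreated libraries (25% of those tested) and 5 below, where 19.4% of all genes were above and 14.4% below. SLC7A2, the CAT2 carrier of arginine, had 2691 and 2465 normalised reads in untreated cells, 3981 in VEM and 4204 in VEM+BOR, a log2 change of 0.67 (SE 0.20, limma adjusted p = 0.409). SLC6A6, the taurine carrier, was at 0.50 (SE 0.26) with adjusted p = 0.894 in limma. SLC7A8, the LAT2 light chain, had 175 and 134 in untreated cells, 102 in VEM and 83.3 in VEM+BOR, a log2 change of -0.73 (SE 0.33, limma adjusted p = 0.796). SLC38A6 was at -0.70 (SE 0.38) with adjusted p = 0.903 in limma. Among 15 lysosomal and mitochondrial carriers tested of 17, limma called 0, with 0 at an unadjusted p under 0.05 and a median of 0.01. Of the named ones, the ornithine carrier SLC25A15 was at 0.42, the lysosomal cystine exporter CTNS at -0.43, SLC25A18 at -0.44 and SLC25A13 at -0.25.

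Integrated stress response genes other than transporters were high in the same libraries. Of 32 listed, 30 were tested in the libraries with VEM, and limma called 8 higher and 0 lower. At an unadjusted p under 0.05 it had 23, and 26 were above both untreated libraries (86.7%). Over all genes tested it called 0.22%, 965 of 15442 had an unadjusted p under 0.05, and 19.4% were above both untreated libraries. The median log2 change of the list was 0.999. The 8 called were INHBE, DDIT4, CHAC1, STC2, PSAT1, SESN2, TRIB3 and VLDLR. INHBE, which encodes a secreted activin subunit, had 15.8 and 15.5 normalised reads in untreated cells, 448 in VEM and 322 in VEM+BOR, a log2 change of 4.52 (SE 0.36, limma adjusted p = 0.00471). DDIT4, an inhibitor of mTORC1, went from 190 and 146 to 1734 and 1221, a log2 change of 3.12 (SE 0.26, limma adjusted p = 0.00471). CHAC1, which degrades glutathione, went from 99.8 and 93.9 to 854 and 612, a log2 change of 2.89 (SE 0.27, limma adjusted p = 0.00871). ASNS, asparagine synthetase, was at 2.13 (SE 0.38, limma adjusted p = 0.0845). In BOR 1 and BOR 2, INHBE had 25.6 and 678 normalised reads and DDIT4 had 185 and 22983. CHAC1 had 141 and 2966 there, and ASNS had 47.5 and 616. Each of these genes was thus higher in BOR 2, which had no VEM, than in both libraries with VEM. ATF4 itself was at 0.98, with an adjusted p of 0.270 in limma. In BOR against untreated cells limma called 0 of 31, with 0 at an unadjusted p under 0.05 and a median of 1.10. Without BOR 2 the median was 0.07, with 0 of 29 called and 0 at an unadjusted p under 0.05.

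Another list held 8 genes around eIF2alpha: its 4 kinases, the phosphatase subunits PPP1R15A and PPP1R15B, EIF2S1, which is eIF2alpha itself, and GCN1, which activates a kinase. Limma called 0, with 1 at an unadjusted p under 0.05, and the median was 0.07. PPP1R15B was at 0.46, PPP1R15A, which brings phosphatase to eIF2alpha, at 0.40, the kinase EIF2AK3 (PERK) at 0.40 and EIF2AK1 (HRI) at -0.30. Of 30 genes tested for amino acid sensing by mTORC1, 1 rose, the leucine sensor SESN2 at 1.57 (SE 0.24, limma adjusted p = 0.0459), which the stress response list also holds, and the median was -0.01. The other named genes of that list were SEH1L at 0.40, ITFG2 at -0.32 and MIOS at -0.42.

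Cystine taken up by SLC7A11 feeds glutathione synthesis and thereby the defence against lipid peroxidation, so those genes were set beside it. All 18 glutathione genes were tested in the libraries with VEM. CHAC1 rose, 0 fell, and the median log2 change was 0.03. GCLC and GCLM, the subunits of the rate-limiting ligase, were at -0.01 and -0.27, and CTH, which makes cysteine from cystathionine, at 0.79 (SE 0.31, limma adjusted p = 0.701). GLRX was at -0.68. Of 23 NRF2 pathway and target genes limma called 0, with 3 at an unadjusted p under 0.05 and a median of -0.10. MAFF was at 1.03 (SE 0.28, limma adjusted p = 0.325), MAFG at 0.62, OSGIN1 at -0.85 and NQO1 at -0.34. Of 18 ferroptosis regulators 17 were tested and limma called 0, with 4 at an unadjusted p under 0.05 and a median of -0.07. GCH1 was at 0.86 (SE 0.26, limma adjusted p = 0.417), the iron-sulphur protein CISD1 at 0.78, ALOX15 at 0.78 and the transferrin receptor TFRC at 0.73. At an unadjusted p under 0.05 limma had 965 of 15442 genes in this comparison. The median over all genes tested was 0.01.

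**Figure D4:**
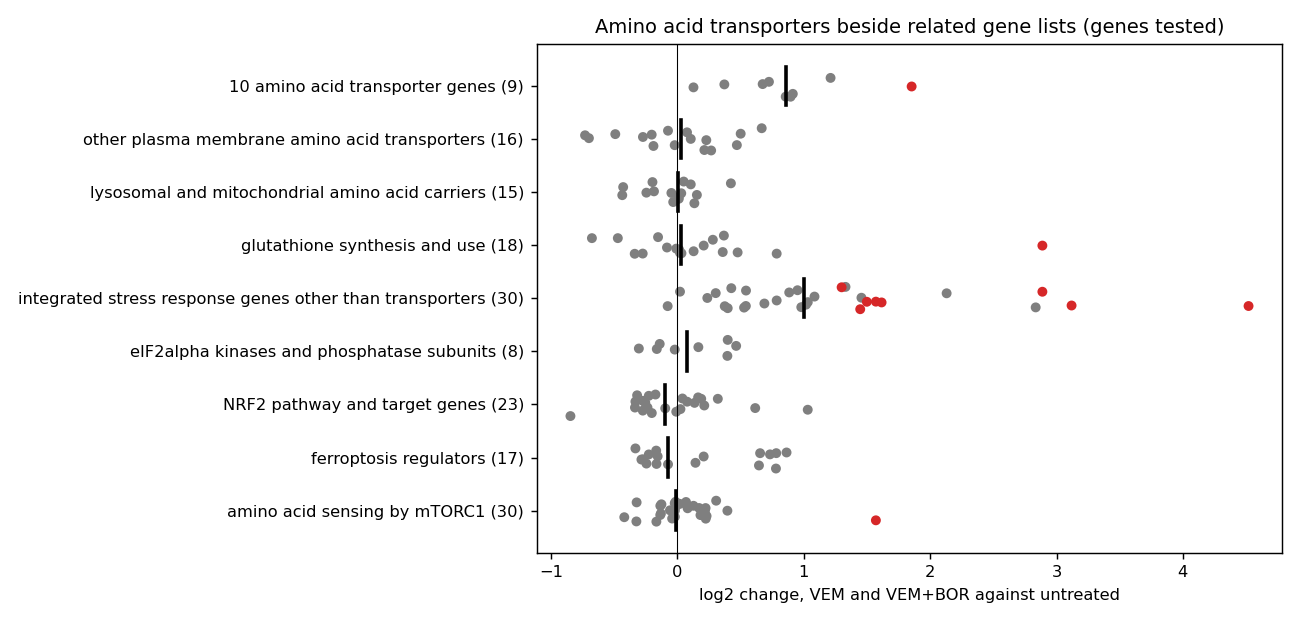
Log2 change in VEM and VEM+BOR against untreated cells for the genes tested of each list (number in brackets); each point is a gene, the short bar the list's median, and red points passed limma's adjusted p under 0.05. The medians are 0.86 for the 10 transporter genes (9 tested) and 0.999 for the stress response genes, and lie between -0.10 and 0.07 for the other lists.

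Genes with a profile like that of SLC7A11 were sought over 10672 protein-coding genes with a mean of at least 5 CPM. Likeness was the root mean square distance between log2 values, each gene centred on its mean over the 6 libraries, and its median over all genes was 0.918. Among the nearest, CD55, a complement regulator, was at 0.298, with 612 and 672 normalised reads in untreated cells, 934 and 1182 in BOR, 1997 in VEM and 3150 in VEM+BOR. TFAP2A was at 0.329, TUBE1 at 0.344 and TMEM121B at 0.351. Of the other members SLC7A5 was closest at 0.578 and SLC38A1 farthest at 0.936. Without BOR 2, a setting chosen after the values were seen, the nearest included STC2 at 0.185, TRIB3 at 0.214, S100P at 0.225 and ATF3 at 0.244, and SLC7A5 stood at 0.318. With BOR 2 the stress response genes STC2 and TRIB3 were not among the nearest: STC2 had 26893 normalised reads there and at most 3105 elsewhere, while SLC7A11 had 658.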

How the data were processed

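RNA was measured in 6 SKM-1 libraries, grouped by their treatment labels. The submitters' processing notes name HISAT2 2.0.5, featureCounts 1.5.0-p3, CASAVA, edgeR 3.22.5 and DESeq2 1.20.0 without saying what each did. No source used here names the genome build; the tables' gene coordinates equal GENCODE 29 (GRCh38). The authors deposited 3 tables, each with a normalised signal per gene and library, which is the read number divided by a size factor. Their deposited log2 fold changes and p-values come from the authors' own test, and sentences that use them name the authors' deposited table.

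Divided by the value of 1 read in their column, all signals came out whole within 0.001, which recovered the reads of each library. CPM denote reads relative to the library total, and RPKM are CPM per kilobase of the authors' gene length. The 3 tables were scaled separately, so single comparisons were fitted within a table. The joint comparison and the values by library used median-of-ratios factors over 23519 genes found in all tables. The two-sided test was limma 3.58.1 (R 4.3.3) on log2(value + 1), with a trend of variance on mean, for genes with a mean of at least 10, Benjamini-Hochberg adjusted over all genes, threshold 0.05. This scale understates changes of low genes. Limma draws the variance of each gene towards the trend over all genes. The trend weighed 18.0 degrees of freedom against 1 from the libraries in VEM and 19.7 against 1 in VEM+BOR. It weighed 4.20 against 2 in BOR and 7.33 against 2 in the joint comparison. SEs and p-values in limma therefore rest more on that trend than on a gene's own libraries. The fit was also run on simulated data with the same spread in every library, set by the untreated pair. That run checked the size of the estimated changes. It cannot show whether a lone treated library varies like that pair. Alternatives were pseudocounts of 0.5 and 5, no filter or a mean of at least 50, TMM, library totals, no trend, edgeR 4.0.16 and DESeq2 1.42.0 on reads, fits with more libraries and leaving out each library. Leaving out VEM or VEM+BOR in the joint comparison, and BOR 2 in the likeness to SLC7A11 and in the lists, was added after the values were seen.

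The members and lists were chosen with earlier results of these data known. All members are named. Of each list up to 4 genes with the largest absolute change in the joint comparison and a mean of at least 1 CPM are named, and of genes like SLC7A11 the 5 nearest. A gene with a near-identical copy and 1 list gene are not reported here. GCLC, GCLM, ATF4 and the called stress response genes were named after their values were seen. Motifs were searched in RefSeq promoters.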

Additional observations from a re-analysis of the deposited data

How the results depend on the processing

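The direction of the members with VEM held: over the alternatives the median log2 change stayed between 0.67 and 0.91 in VEM, VEM+BOR and the joint comparison, and 8 members kept their sign in all of them. SLC43A1 did not: when an untreated library was left out it ran from -0.0140 to 0.26 in VEM, from -0.00697 to 0.27 in VEM+BOR and from -0.0105 to 0.27 jointly. Calls moved more. In VEM, genes called (7) were 0 without a filter, without a trend and with all 6 libraries in 1 fit, 40 with library totals, where 1 member was called, 41 in edgeR, where 1 member was called, and 16 in DESeq2. In VEM+BOR, genes called (30) were 0 without a filter, without a trend and with all 6 libraries, 51 with TMM, 88 with library totals, 85 in edgeR and 64 in DESeq2. Leaving out an untreated library there sets 1 library against 1, so those fits took their spread from the BOR pair, the only libraries left that shared a group. Their 0 to 0 genes and members called in VEM and in VEM+BOR, like the 0 with all 6 libraries, thus do not bear on the untreated library itself. Members called in VEM+BOR were 1 at a mean of at least 50, with TMM, in edgeR, in DESeq2 and with all libraries but BOR 2, and 2 with library totals (SLC7A11 and SLC7A5). In the joint comparison, genes called (34) were 2 without a filter, 8 at a mean of at least 50, 12 with TMM, 6 with library totals, 0 without a trend, 0 with all 6 libraries, 9 in edgeR, 187 in DESeq2 and 7 to 804 when a library was left out. Members called were 4 in DESeq2, 0 in each other of these settings and with a pseudocount of 0.5, and 0 to 5 when a library was left out, with 5 without untreated 1 and 5 without untreated 2. In BOR, genes called (0) were 28 in DESeq2 and 0 to 4008 when a library was left out, 4008 without BOR 1. Members called were 0 to 6 and their median 0.20 to 1.49 in those fits, and the median was 0.46 with library totals. SLC43A1 turned to -0.0214 with library totals and SLC38A2 to 0.0213 in DESeq2. Between the fits without BOR 2 and without BOR 1, SLC3A2 ran from -0.0523 to 2.16, SLC38A2 from 0.56 to -0.78 and SLC38A1 from 0.25 to -1.42. The cause was not tested. No paired analysis was possible because the labels carry no replicate numbers. With 17252404 reads in the shallowest library, depth limits SLC6A9, at 1 to 8 reads, and not the other members.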
